A study of Danio rerio with 10 samples.

Results

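The SLC25 mitochondrial carriers of zebrafish erythroid cells were taken as the rows of the deposited expression table whose gene symbol starts with slc25a, in either case, except slc25a37 and slc25a38a. The rule gave 57 of 32233 rows, each with its own gene ID, and used no measured value. RNA had been sequenced from 5 libraries of sf3b1 mutant embryos (replicates 1, 3, 4, 5 and 6) and 5 libraries of their siblings (replicates 2 to 6). All libraries came from cells positive for gata1, an erythroid transcription factor gene, at 24 hours post fertilization. sf3b1 encodes a subunit of the U2 particle that recognises intron branch points during splicing. The labels give the genotypes as sf3b1 mutant and wild type and name neither the allele nor the way in which gata1-positive cells were marked. Nor do they tell if each library is its own clutch or pool of embryos, and the p-values therefore reflect the spread among these 10 libraries, some of which may be technical. Sibling 2 is wild type by its title and mutant by its genotype tag, and was kept with the siblings because the design text gives 5 samples of each kind.

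SLC25 proteins form the largest family of transporters of the inner mitochondrial membrane. Most move a small solute, such as ADP and ATP, phosphate, a carboxylate, an amino acid, a cofactor or iron, between the cytosol and the matrix. Developing red cells depend on several of them because heme is made partly inside mitochondria, from glycine, succinyl-CoA and iron. Carriers are made in the cytosol, handed by Tom70 and small Tim chaperones across the outer membrane, and inserted by the TIM22 complex. Roles given here come mostly from human, mouse and yeast proteins, and zebrafish evidence is named where it is meant.

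Values are FPKM, fragments scaled by transcript length and by library size, so levels of different genes can be set side by side. This scaling does not correct for differences in RNA composition, on which comparisons between libraries also depend. FPKM sums ran from 293816 to 422870 per library, and absolute depth is unknown. sf3b1 itself lay at 17.6, 16.0, 20.6, 19.4 and 21.3 FPKM in mutants against 41.0, 36.3, 42.3, 37.5 and 43.9 FPKM in siblings (limma adjusted p = 3.26e-04), with sibling 2 among the other siblings. The 8 erythroid markers were present in every library. Their summed level ran from 2417 to 8248 FPKM in mutants and from 4597 to 21303 FPKM in siblings. It was lowest in mutant 1 and sibling 2 of their groups. All 8 were lower in mutants, with log2 fold changes of FPKM + 1 from -1.27 (hbbe3) to -0.33 (epor), though 0 of the 8 passed the test. The same libraries held the highest sums of 8 epidermal markers, 621 FPKM in mutant 1 (123.7 to 318 in the other mutants) and 359.6 FPKM in sibling 2 (116 to 155 in the other siblings), and 0 of the 8 passed. Of 8 myeloid markers 7 fell, with sums of 133 to 301 FPKM in mutants and 370.2 to 716 FPKM in siblings. Of 6 tested muscle markers 2 fell, with sums over 8 rows of 41.9 to 148 FPKM in mutants and 85.3 to 362 FPKM in siblings. Over all tested genes 5.59% rose and 8.74% fell. Sums of 8 neural markers ran from 31.7 to 92.8 FPKM in mutants and from 46.6 to 78.4 FPKM in siblings. Muscle and neural sums were also highest in mutant 1 and sibling 2 of their groups. For the neural sum of sibling 2 the margin was narrow, with sibling 6 at 77.6 FPKM. Sums of 8 yolk and endoderm rows, of which gc was listed at 0 throughout, stayed at or below 5.36 FPKM. The part of these other cell types in the results was not tested, and fewer cells of a type and less RNA per cell cannot be told apart in such samples.

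A few carriers made up most of the family's RNA in both genotypes. slc25a5, an ADP/ATP carrier that exchanges mitochondrial ATP for cytosolic ADP, had 535, 572, 587, 594 and 502 FPKM in mutants against 530.1, 445, 552, 552 and 515 FPKM in siblings. Its mean lay above that of 99.4% of tested genes. It alone held 50.7 to 59.5% of the summed FPKM of the 57 rows in mutants and 48.2 to 57.4% in siblings. slc25a3b, which brings in the phosphate used for ATP synthesis, had 123, 120.5, 162, 126 and 129 FPKM in mutants against 115, 127, 131, 99.1 and 146 FPKM in siblings. slc25a22, a glutamate carrier, was the next, and these 3 genes together held 80.0 to 82.5% of the sum in mutants and 78.0 to 82.1% in siblings. The sum itself was 989.6 ± 70.4 FPKM in mutants and 985 ± 70.6 FPKM in siblings (SD, n = 5 each), so the groups overlapped.

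**Figure D1:**
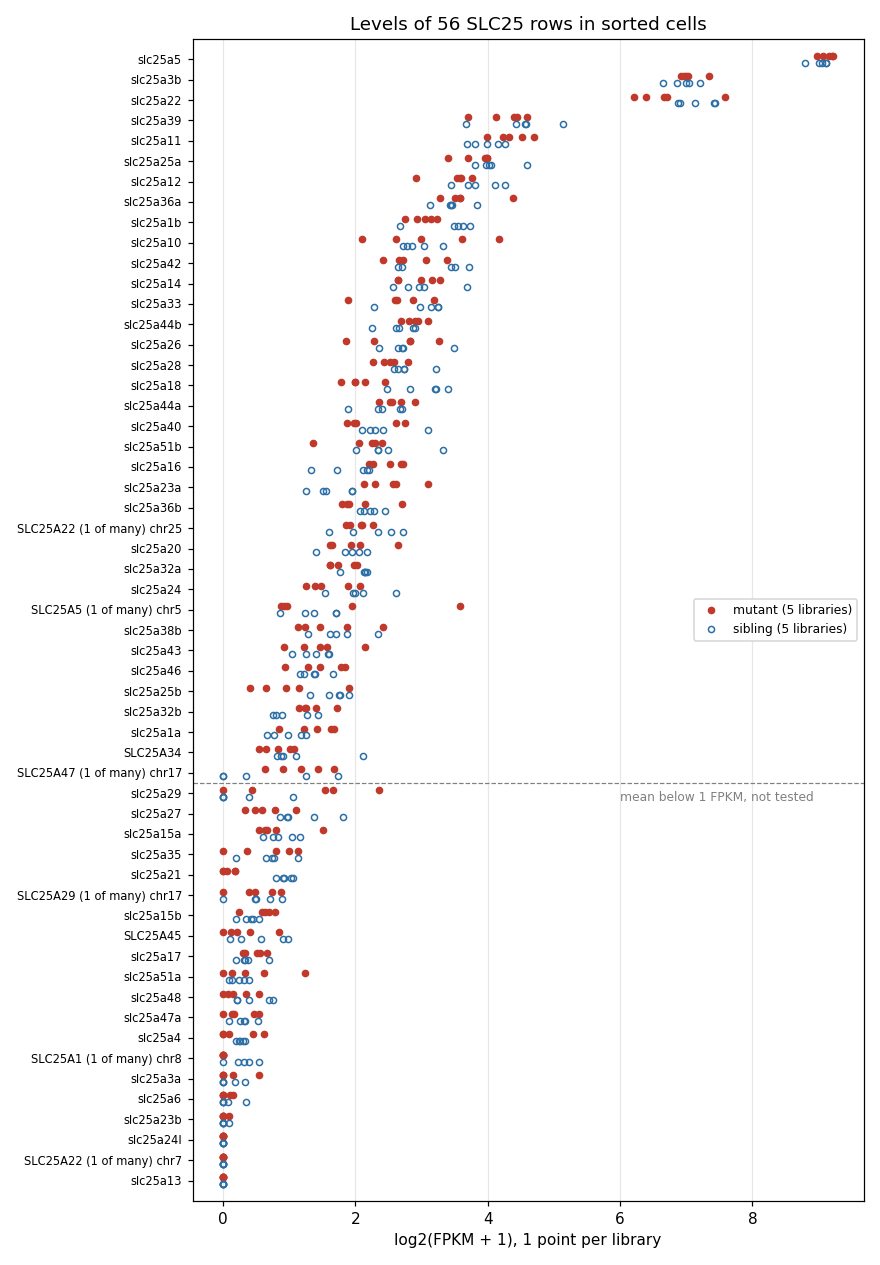
Levels of 56 SLC25 rows, ordered by their mean, as log2(FPKM + 1) with 1 point per library (filled, 5 mutant libraries; open, 5 sibling libraries). slc25a5, slc25a3b and slc25a22 stand above the rest, and the 20 rows under the dashed line have a mean below 1 FPKM and were not tested.

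Below these 3, only 5 other members reached a mean of 10 FPKM, namely slc25a39, slc25a11, slc25a25a, slc25a12 and slc25a36a. A further 9 had means from 5 to 10 FPKM and 20 from 1 to 5 FPKM. The remaining 20 had a mean below 1 FPKM, and 3 of them, slc25a13, slc25a24l and a SLC25A22 copy on chromosome 7, were listed at 0 in every library. In several duplicated or related sets 1 gene carried nearly all of the signal. The other ADP/ATP carriers slc25a4 and slc25a6 did not exceed 0.529 and 0.277 FPKM in any library, and the second phosphate carrier slc25a3a did not exceed 0.456 FPKM. Of the 2 aspartate/glutamate carriers, slc25a12 was measured at 6.56, 11.1, 10.7, 10.9 and 12.6 FPKM in mutants against 9.86, 11.998, 16.3, 13.0 and 18.1 FPKM in siblings, while slc25a13 was at 0. An exact 0 in such a table can be a failed estimate, and the slc25a13 locus lies wholly within that of another row, pdk4, so its 0 is given only as listed.

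The comparison of mutants with siblings asks which of these transporters change when the splicing factor is mutant. Of the 37 members with a mean of at least 1 FPKM, 2 rose, slc25a23a among them, and 1 fell (slc25a18) at a limma adjusted p under 0.05, adjusted over all 13003 genes tested. The share that rose, 5.41%, was close to the 5.59% of all tested genes that rose. The share that fell, 2.70%, stood beside 8.74% of all tested genes. With quantile normalization 987 genes rose and 1008 fell, against 727 and 1137 as deposited, so the balance over all genes depends on the scaling. The median log2 fold change of FPKM + 1 was -0.14 for the 37 members and -0.06 for all tested genes, and the median size of a change was 0.28 and 0.29. Groups did not overlap for 2 of the 37 members (5.41%), against 12.2% of tested genes. None of the 37 reached a 2-fold change on this scale, and for 29 of the 34 members that missed the threshold the 95% interval of the log2 fold change lay between -1 and 1. The scale makes changes of low genes smaller. The ratio of mean FPKM, mutant over sibling, was 2.28 for slc25a23a and 0.442 for slc25a18. Members that rose numbered 1 in place of 2 without any one of mutants 1, 3, 4 or 6 or siblings 3, 5 or 6, and members that fell numbered 3 without mutant 1 and 2 without sibling 2.

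**Figure D2:**
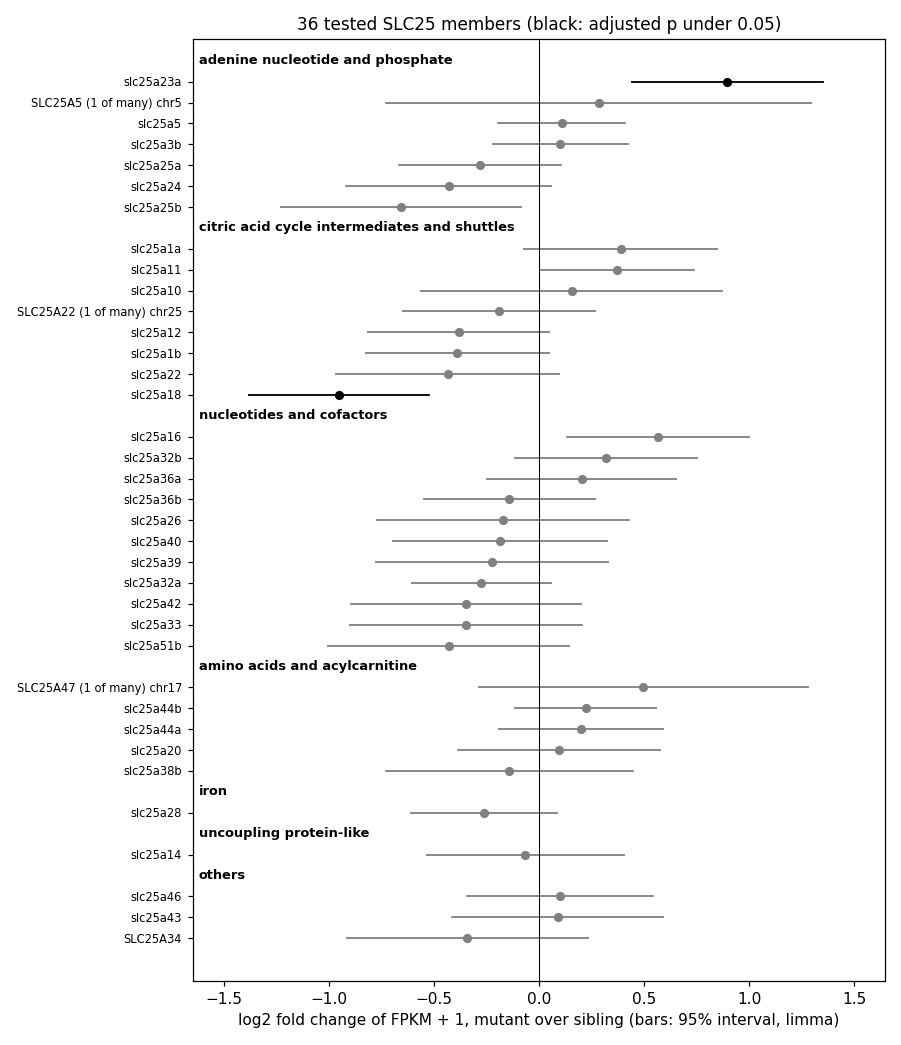
Log2 fold change of FPKM + 1, mutant over sibling, for 36 tested SLC25 members, grouped by what they carry, with 95% intervals from limma. slc25a23a lies to the right of 0 and slc25a18 to the left, both drawn in black (adjusted p under 0.05), while the other 34 are grey.

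Among carriers of adenine nucleotides and phosphate, 1 of 7 tested members rose and 0 fell, against 5.59% and 8.74% of all tested genes. slc25a23a, an ATP-Mg/phosphate carrier with calcium-binding EF-hands (GRCz10 chromosome 1, 54296540 to 54320095), had 5.09, 3.92, 3.39, 7.55 and 4.94 FPKM in mutants against 2.88, 1.95, 1.86, 2.85 and 1.38 FPKM in siblings. Every mutant library lay above every sibling library. The means were 4.98 ± 1.602 FPKM in mutants and 2.18 ± 0.659 FPKM in siblings (SD, n = 5 each), with a log2 fold change of 0.90 (SE 0.21, limma adjusted p = 0.0149). It was called in each alternative that tested it, at adjusted p of 0.00929 to 0.0449.

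Of its relatives with the same transport role, slc25a25a, slc25a25b and slc25a24 gave values in the other direction that missed the threshold. slc25a25a had 9.58, 14.9, 11.95, 14.6 and 14.8 FPKM in mutants against 23.1, 15.5, 12.9, 15.3 and 14.7 FPKM in siblings, a log2 fold change of -0.28 (limma adjusted p = 0.333). Sibling 2 lay apart at 23.1 FPKM, and with 1 library left out the log2 fold change ran from -0.35 to -0.15. slc25a25b had 2.72, 0.571, 0.323, 1.21 and 0.937 FPKM in mutants against 2.75, 2.02, 2.38, 1.49 and 2.405 FPKM in siblings, a log2 fold change of -0.66 (limma adjusted p = 0.118). Mutant 1 was the exception: the other 4 mutants lay below all siblings, and without mutant 1 slc25a25b passed the test (log2 fold change -0.88, limma adjusted p = 0.0175). slc25a24 averaged 2.13 ± 0.772 FPKM in mutants and 3.25 ± 1.17 FPKM in siblings (SD, n = 5 each, limma adjusted p = 0.232), and slc25a23b was near 0 in both groups.

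The abundant members of the same group, slc25a5 and slc25a3b, overlapped between genotypes and missed the threshold. slc25a5 averaged 558 ± 38.8 FPKM in mutants and 519 ± 44.0 FPKM in siblings (SD, n = 5 each). Its log2 fold change was 0.11, with a 95% interval of -0.20 to 0.41 (limma adjusted p = 0.659). It had the smallest spread of the tested members within each genotype, a coefficient of variation of 6.95% in mutants and 8.49% in siblings, against medians of 32.2% and 27.3% over the tested members. slc25a3b averaged 132 ± 17.0 FPKM in mutants and 124 ± 17.6 FPKM in siblings (SD, n = 5 each), with a 95% interval of -0.22 to 0.42 for its log2 fold change (limma adjusted p = 0.703). A second SLC25A5 row on chromosome 5 (ENSDARG00000042521) lay at 11.01 FPKM in mutant 1 and at or below 2.88 FPKM in every other library, and its reads may be shared with near-identical copies.

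Carriers of citric acid cycle intermediates and of glutamate held the 1 member that fell. slc25a18, a glutamate carrier (GRCz10 chromosome 25, 16518778 to 16570486), had 4.43, 2.97, 3.40, 2.99 and 2.45 FPKM in mutants against 6.07, 9.58, 8.33, 4.55 and 8.18 FPKM in siblings. The groups did not overlap, though mutant 1 and sibling 5 lay close together. Its means were 3.25 ± 0.745 FPKM in mutants and 7.34 ± 2.01 FPKM in siblings (SD, n = 5 each), with a log2 fold change of -0.95 (SE 0.20, limma adjusted p = 0.00812). The call held without each single library (adjusted p of 0.00416 to 0.0254) and ended with sibling 2 counted as a mutant (0.0501). Its locus overlaps that of cecr2 by 20774 bases, and cecr2 averaged 16.1 FPKM in mutants and 14.2 FPKM in siblings.

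The other glutamate carrier, slc25a22, was far more abundant and separated the groups except for 1 library. slc25a22 had 192, 101, 83.0, 103 and 72.8 FPKM in mutants against 169, 116, 118, 139 and 172 FPKM in siblings. Mutant 1 had the highest value of all 10 libraries, and the other 4 mutants lay below every sibling. Over all libraries the log2 fold change was -0.44 with a 95% interval of -0.97 to 0.10 (limma adjusted p = 0.269). Without mutant 1 it was -0.66 (limma adjusted p = 0.0299), and without both mutant 1 and sibling 2 it was -0.59 (limma adjusted p = 0.0482). Mutant 1 also had the highest epidermal and neural marker sums and the lowest erythroid marker sum of all 10 libraries, as given above. Its muscle marker sum was the highest of the mutants. Among siblings slc25a22 was highest in sibling 6 (172 FPKM), which had the highest erythroid marker sum of all libraries. The part of other cell types in the slc25a22 values was not tested. Another glutamate carrier row, SLC25A22 on chromosome 25, averaged 3.14 ± 0.460 FPKM in mutants and 3.88 ± 1.43 FPKM in siblings (SD, n = 5 each, limma adjusted p = 0.602).

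**Figure D3:**
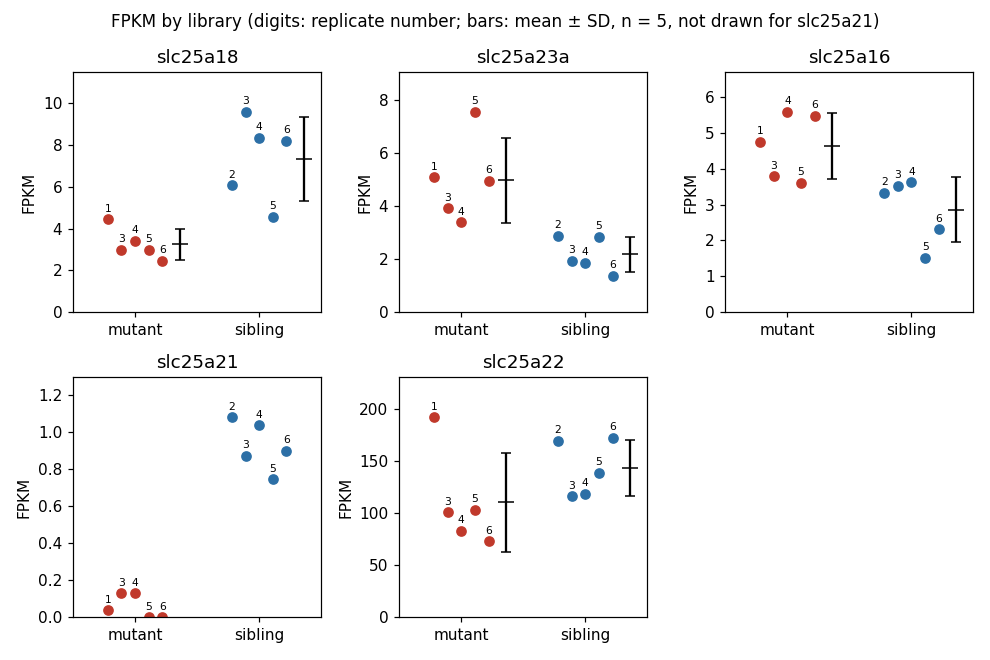
FPKM by library for 5 SLC25 members (mutant on the left, sibling on the right of each panel, axes from 0), with replicate numbers beside the points and the mean ± SD (n = 5) except for slc25a21. slc25a18, slc25a23a and slc25a21 do not overlap between groups, slc25a16 overlaps through mutant 5 and sibling 4, and slc25a22 overlaps only through mutant 1.

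The malate-aspartate shuttle pairs an aspartate/glutamate carrier with the 2-oxoglutarate/malate carrier, and their values lay on opposite sides of 0 without passing the test. slc25a12, whose values are given above, had a log2 fold change of -0.38 (95% interval -0.81 to 0.05, limma adjusted p = 0.228). slc25a11 had 24.9, 17.9, 21.9, 18.9 and 14.9 FPKM in mutants against 14.8, 18.1, 16.8, 13.0 and 11.9 FPKM in siblings, a log2 fold change of 0.37 (95% interval 0.01 to 0.74, limma adjusted p = 0.160). slc25a10, the dicarboxylate carrier, had a coefficient of variation of 62.6% in mutants and 20.9% in siblings, with 16.9, 5.13, 11.2, 6.99 and 3.29 FPKM in mutants against 9.05, 5.55, 7.24, 6.23 and 5.85 FPKM in siblings. Mutants 1 and 4 were above and mutants 3 and 6 below every sibling, and its limma adjusted p was 0.801.

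slc25a1 proteins export citrate, the carbon source of cytosolic lipid synthesis, and zebrafish have an a and a b copy. slc25a1a had 2.08, 0.802, 1.33, 2.19 and 1.68 FPKM in mutants against 0.706, 0.979, 1.37, 0.586 and 1.26 FPKM in siblings (limma adjusted p = 0.252). slc25a1b had 7.29, 6.61, 8.41, 7.85 and 5.76 FPKM in mutants against 5.36, 10.3, 10.7, 11.3 and 12.3 FPKM in siblings, a log2 fold change of -0.39 (limma adjusted p = 0.226). Here sibling 2 was the exception, below all mutants while the other 4 siblings lay above all of them. Without sibling 2 slc25a1b fell by 0.58 on the log2 scale (limma adjusted p = 0.0212), with sibling 2 counted as a mutant it did so by 0.63 (0.0322), and without both mutant 1 and sibling 2 by 0.58 (0.0270).

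Among carriers of nucleotides and cofactors, slc25a16, linked to coenzyme A in the matrix, had the smallest adjusted p of the members that missed the threshold. It had 4.74, 3.78, 5.58, 3.599 and 5.47 FPKM in mutants against 3.33, 3.52, 3.62, 1.52 and 2.31 FPKM in siblings, so that only mutant 5 and sibling 4 overlapped. Its log2 fold change of 0.57 had a limma adjusted p of 0.0781, and it passed with median of ratios scaling (0.0482) and quantile normalization (0.0425). slc25a42, which carries coenzyme A itself, averaged 6.42 ± 2.02 FPKM in mutants and 8.59 ± 3.07 FPKM in siblings (SD, n = 5 each, limma adjusted p = 0.405).

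The other cofactor and nucleotide carriers reported here missed the threshold, with log2 fold changes between -0.43 and 0.32. slc25a51b, an NAD carrier, averaged 3.33 ± 1.07 FPKM in mutants and 4.95 ± 2.36 FPKM in siblings, and slc25a26, which imports S-adenosylmethionine, 5.46 ± 2.33 FPKM in mutants and 6.14 ± 2.37 FPKM in siblings (SD, n = 5 each). slc25a33, a pyrimidine nucleotide carrier, averaged 5.45 ± 1.96 FPKM in mutants and 7.11 ± 1.95 FPKM in siblings (SD, n = 5 each). The pyrimidine nucleotide carriers slc25a36a and slc25a36b and the folate and FAD carriers slc25a32a and slc25a32b are described with the duplicated genes below.

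Carriers tied to heme and iron did not pass the test. slc25a39, which mammalian cells need to bring glutathione into mitochondria and zebrafish need for heme synthesis, had 12.003, 16.5, 23.2, 20.6 and 20.1 FPKM in mutants against 11.7, 22.6, 23.0, 20.5 and 34.1 FPKM in siblings. It was lowest in mutant 1 and sibling 2 within their groups and highest of all in sibling 6, which also had the highest erythroid marker sum. Its log2 fold change was -0.22, with a 95% interval of -0.78 to 0.33 (limma adjusted p = 0.610). Its close relative slc25a40 averaged 3.89 ± 1.43 FPKM in mutants and 4.55 ± 1.71 FPKM in siblings (SD, n = 5 each, limma adjusted p = 0.650), in a locus wholly overlapped by cldn12. slc25a28, mitoferrin 2, an iron importer of most tissues, averaged 4.77 ± 0.784 FPKM in mutants and 5.95 ± 1.34 FPKM in siblings (SD, n = 5 each, limma adjusted p = 0.314).

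The erythroid iron importer slc25a37, mitoferrin 1, is outside the set but carries the same solute as slc25a28. It lay at 75.7, 140.1, 207, 185 and 201 FPKM in mutants against 88.0, 219.6, 197, 154 and 208 FPKM in siblings (limma adjusted p = 0.851), again lowest in mutant 1 and sibling 2, and above slc25a28 in every library. The glycine carrier slc25a38b averaged 2.26 ± 1.29 FPKM in mutants and 2.50 ± 0.994 FPKM in siblings (SD, n = 5 each, limma adjusted p = 0.776), while its copy slc25a38a did not exceed 1.14 FPKM.

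Among amino acid and acylcarnitine carriers 0 of 5 tested members passed, against 14.3% of all tested genes. slc25a20, which moves acylcarnitines for fatty acid oxidation, averaged 3.09 ± 1.28 FPKM in mutants and 2.75 ± 0.711 FPKM in siblings (SD, n = 5 each, limma adjusted p = 0.821). The row SLC25A47 on chromosome 17 was listed at 0 in 2 siblings and had 1.69, 0.549, 0.868, 2.19 and 1.26 FPKM in mutants against 2.32, 1.38, 0, 0 and 0.273 FPKM in siblings. In the groups left, slc25a14, an uncoupling protein relative, slc25a43, slc25a46, an outer membrane protein of mitochondrial dynamics, and SLC25A34 had limma adjusted p of 0.435 to 0.876.

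The carriers slc25a1, slc25a25, slc25a32, slc25a36 and slc25a44 had both the a and the b copy above the filter, which allows the copies to be compared within each library. The log2 ratio of copy a to copy b was taken on FPKM + 1, so ratios with a low copy are smaller than those of plain FPKM. It was compared between genotypes by a two-sided exact permutation test over libraries, with adjustment over the 5 pairs. The smallest p that relabelling the libraries can give is 0.0079. The ratio of slc25a36a to slc25a36b was higher by 0.35 in mutants (1.58 ± 0.15 in mutants and 1.24 ± 0.13 in siblings, SD, n = 5 each; exact permutation p = 0.0159, adjusted p = 0.0595). That of slc25a1a to slc25a1b was higher by 0.78 (-1.67 ± 0.35 in mutants and -2.44 ± 0.39 in siblings, SD, n = 5 each; exact permutation p = 0.0238, adjusted p = 0.0595). Neither passed after adjustment. The adjusted exact permutation p of both was 0.0397 without sibling 2 and 0.0476 without both mutant 1 and sibling 2. It was 0.0238 for both with sibling 2 counted as a mutant. In each of these settings both pairs lay at the smallest p that relabelling could give there, which is larger than 0.0079. Passing then depended on how many of the 5 pairs shared that smallest p.

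The single-copy values behind the slc25a36 ratio overlapped. slc25a36a had 19.8, 8.73, 10.4, 10.96 and 11.01 FPKM in mutants against 13.4, 9.82, 9.92, 7.77 and 9.97 FPKM in siblings. slc25a36b had 5.54, 2.46, 3.40, 2.74 and 2.67 FPKM in mutants against 4.44, 3.37, 3.84, 3.19 and 3.64 FPKM in siblings. Both copies were highest in mutant 1 and sibling 2 of their groups, which the ratio takes out.

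For the folate carriers the copies lay nearer to each other in mutants, with a difference that missed the threshold. slc25a32a had 2.93, 2.32, 2.06, 3.07 and 2.08 FPKM in mutants against 3.43, 3.50, 3.35, 3.42 and 2.395 FPKM in siblings. slc25a32b had 1.39, 1.22, 2.31, 1.35 and 1.64 FPKM in mutants against 0.853, 0.694, 1.42, 0.741 and 1.72 FPKM in siblings. Their log2 ratio was 0.44 ± 0.38 in mutants and 1.04 ± 0.45 in siblings (SD, n = 5 each; exact permutation p = 0.0556, adjusted p = 0.0926). Only in mutant 4 was copy b the higher of the 2.

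The branched-chain amino acid carriers slc25a44a and slc25a44b were near each other in level. slc25a44a had 5.44, 4.74, 4.11, 4.86 and 6.46 FPKM in mutants against 2.68, 4.29, 5.50, 4.09 and 5.39 FPKM in siblings. slc25a44b had 5.43, 6.02, 7.52, 6.66 and 6.43 FPKM in mutants against 5.15, 3.77, 5.33, 6.50 and 6.295 FPKM in siblings. Their ratio had an exact permutation p of 0.944, and that of slc25a25a to slc25a25b one of 0.317 (adjusted p = 0.397). In the slc25a25 ratio mutant 1 lay at 1.51, below the other mutants at 2.82 to 3.34. Without both mutant 1 and sibling 2 the slc25a25 ratio was higher by 0.77 in mutants (adjusted exact permutation p = 0.0476). This too was at the smallest p that relabelling could give there.

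**Figure D4:**
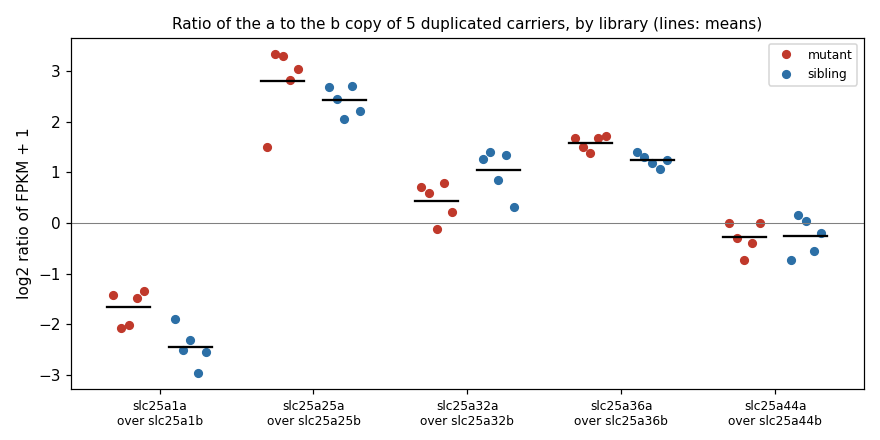
Log2 ratio of FPKM + 1 of the a copy to the b copy for 5 duplicated SLC25 carriers, 1 point per library (mutant left and sibling right in each pair, lines at the means). The mean ratio is higher in mutants for slc25a1 and slc25a36, 0 of the 5 differences passed after adjustment, and mutant 1 lies apart for slc25a25.

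Of the 20 members below 1 FPKM, slc25a21 alone had groups that did not overlap. The share without overlap among all rows below 1 FPKM is not given here, so this count has no background. slc25a21 carries 2-oxoadipate, an intermediate of lysine and tryptophan breakdown (GRCz10 chromosome 17, 38082742 to 38285436). It was listed at 0.0376, 0.130, 0.129, 0 and 0 FPKM in mutants against 1.08, 0.871, 1.04, 0.747 and 0.898 FPKM in siblings. It was picked after its values were seen. With no filter on low values its log2 fold change was -0.86 (SE 0.09, limma adjusted p = 4.62e-04), in a fit that called 3.48% of 25707 genes lower, and no other row overlaps its locus.

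The other members below the filter missed the threshold in that fit. SLC25A1 on chromosome 8 was listed at 0 in all mutants and at 0.251, 0.318, 0, 0.173 and 0.449 FPKM in siblings (limma adjusted p = 0.0698). slc25a29, a basic amino acid carrier, had 1.90, 4.13, 0.350, 2.15 and 0 FPKM in mutants against 0, 0.307, 1.08, 0 and 0 FPKM in siblings (limma adjusted p = 0.276). slc25a27, an uncoupling protein relative of neurons, had 1.149, 0.723, 0.398, 0.497 and 0.256 FPKM in mutants against 0.809, 0.960, 2.53, 0.966 and 1.59 FPKM in siblings (limma adjusted p = 0.210), and its locus overlaps 3 other rows. The others with any value above 0 had limma adjusted p of 0.409 to 1. They were the ornithine carriers slc25a15a and slc25a15b, the peroxisomal slc25a17, the NAD carrier slc25a51a, slc25a35, slc25a47a, slc25a48, SLC25A45, SLC25A29 on chromosome 17, and slc25a3a, slc25a4, slc25a6 and slc25a23b.

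Members lie on 22 chromosomes, and 3 pairs are near neighbours. slc25a5 and slc25a43 are 592 bases apart on chromosome 14, at means that differ widely (558 and 1.87 FPKM in mutants, 519 and 1.62 FPKM in siblings). slc25a29 lies 3869 bases from slc25a47a on chromosome 20, and the second SLC25A29 and SLC25A47 rows lie 10145 bases apart on chromosome 17. Only slc25a6 is on chromosome 9, where sf3b1 lies.

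Import of proteins into mitochondria was described from a list of 25 genes of the TOM and TIM complexes, of which 24 matched a row and 22 were tested. The list is wider than carrier import. It also holds genes of the presequence translocase and its motor (timm23a, timm23b, timm17a, timm17b, timm50, timm21 and timm44), which serve other proteins. Of the 22 tested genes 6 rose (27.3%, against 5.59% of all tested genes) and 0 fell. Their median log2 fold change was 0.38 (-0.06 over all tested genes). The list was chosen with earlier results of these data known, so its share beside that of all genes is only a description. The row matched as tomm20a is named arid4b in the table and missed the threshold (limma adjusted p = 0.0704). Of the 6, tomm70a and tomm22 are receptors, timm8a and timm13 small chaperones, and the timm29 row a TIM22 subunit. timm23a belongs to the presequence translocase.

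tomm70a, the receptor that recognises carriers, had 25.3, 26.2, 31.7, 30.1 and 27.4 FPKM in mutants against 19.3, 19.2, 22.3, 18.2 and 20.6 FPKM in siblings, a log2 fold change of 0.48 (SE 0.12, limma adjusted p = 0.0213). tomm22, a central receptor of the TOM complex, had 17.3, 21.8, 24.3, 20.5 and 17.3 FPKM in mutants against 13.6, 12.8, 12.1, 14.5 and 12.5 FPKM in siblings, a log2 fold change of 0.58 (SE 0.13, limma adjusted p = 0.0136). timm8a, a small chaperone of the intermembrane space, had 12.5, 13.5, 19.3, 17.3 and 16.7 FPKM in mutants against 8.29, 11.1, 9.18, 9.70 and 10.3 FPKM in siblings, a log2 fold change of 0.64 (SE 0.15, limma adjusted p = 0.0137). In all 3 every mutant library lay above every sibling library.

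timm13, which works with timm8a, averaged 37.8 ± 7.33 FPKM in mutants and 23.4 ± 4.81 FPKM in siblings, with mutant 1 among the siblings at 25.5 FPKM (SD, n = 5 each, limma adjusted p = 0.0346). The TIM22 subunit timm29 (zgc:110046 in the table) averaged 10.9 ± 2.06 FPKM in mutants and 6.16 ± 1.96 FPKM in siblings (SD, n = 5 each, limma adjusted p = 0.0305). Its locus lies wholly within that of si:ch211-165d12.4, which averaged 3.49 FPKM in mutants and 6.32 FPKM in siblings. timm23a averaged 11.6 ± 1.77 FPKM in mutants and 6.78 ± 2.11 FPKM in siblings (SD, n = 5 each, limma adjusted p = 0.0307). timm22 itself, the channel for carriers, averaged 7.22 ± 1.98 FPKM in mutants and 6.21 ± 1.02 FPKM in siblings (SD, n = 5 each, limma adjusted p = 0.610), and the chaperones timm9 and timm10 also missed the threshold (0.592 and 0.671). tomm22 and timm8a passed without each single library, while tomm70a missed without mutant 4, mutant 5 or sibling 5 (limma adjusted p of 0.0505 to 0.0558). timm13 missed without any one of mutants 3, 4, 5 or 6 or siblings 3, 4 or 5 (limma adjusted p of 0.0630 to 0.0816). The timm29 row missed without any one of mutants 3, 4, 5 or 6 or siblings 2 or 4 (limma adjusted p of 0.0525 to 0.0706). timm23a missed without any one of mutants 3, 4 or 6 or siblings 4 or 6 (limma adjusted p of 0.0608 to 0.0699). With no filter on low values these 3 missed as well (0.0577 to 0.0593). Import genes that rose numbered 2 without mutant 4, 3 without mutant 5, mutant 6 or sibling 4, and 0 with sibling 2 counted as a mutant.

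Related transporters outside the naming rule were taken as a list of 12, of which 11 matched and 9 were tested, with 0 rising and 1 falling (11.1%, against 8.74%). ucp2, an uncoupling protein of the same carrier family, had 15.7, 13.7, 13.8, 12.3 and 9.87 FPKM in mutants against 18.1, 38.1, 22.4, 27.8 and 32.2 FPKM in siblings, with every mutant below every sibling. Its log2 fold change was -0.998 (SE 0.20, limma adjusted p = 0.00714), and its locus overlaps that of ucp3, which averaged 5.46 ± 2.02 FPKM in mutants and 4.44 ± 1.56 FPKM in siblings (SD, n = 5 each, limma adjusted p = 0.589). Myeloid marker sums of the 2 genotypes did not overlap either, being lower in mutants as given above, and their part in the fall of ucp2 and slc25a18 was not tested. mtch2, an outer membrane relative of the carriers, and mpc1, a subunit of the pyruvate carrier, had limma adjusted p of 0.235 and 0.406. The outer membrane channel gene vdac2, which passes the metabolites that the carriers take on, averaged 166 ± 28.9 FPKM in mutants and 197 ± 36.04 FPKM in siblings (SD, n = 5 each, limma adjusted p = 0.405).

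**Figure D5:**
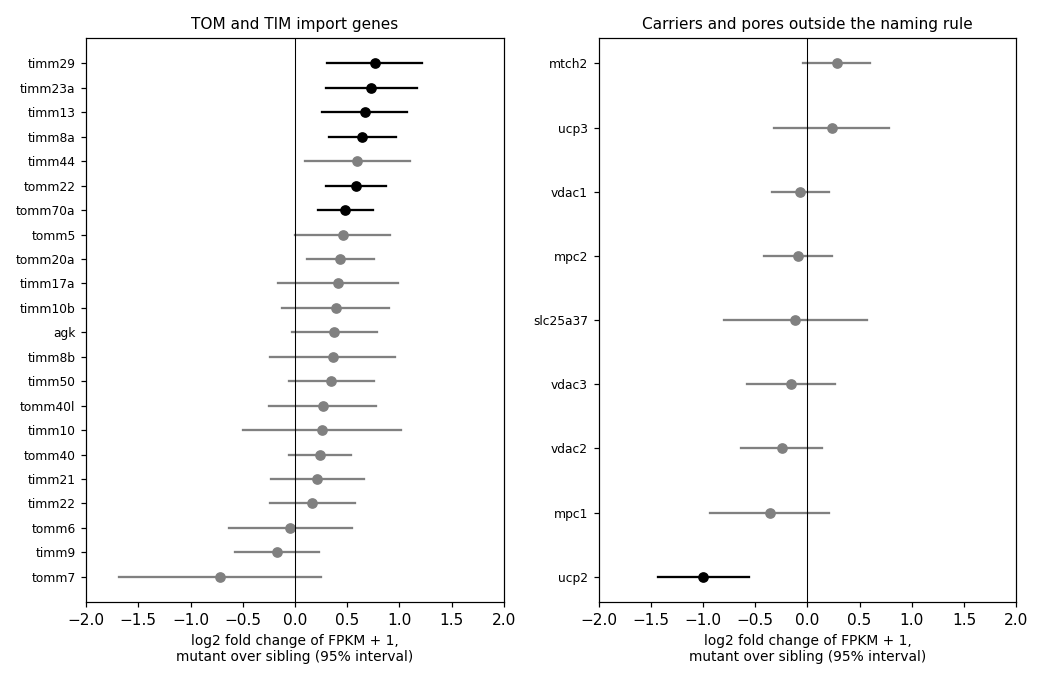
Log2 fold change of FPKM + 1, mutant over sibling, with 95% intervals from limma, for 22 tested import genes (left) and 9 tested carriers and pores outside the naming rule (right); black marks an adjusted p under 0.05. The 6 import genes in black lie right of 0 and ucp2 lies left of it.

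Carriers were at the extreme of both groups in mutant 1 and sibling 2 no more often than all tested genes. slc25a39, slc25a12 and slc25a51b were lowest in both mutant 1 and sibling 2 (8.11% of the 37 tested members, against 8.31% of all tested genes). slc25a36a, slc25a10, slc25a36b, slc25a43 and slc25a25b were highest in both (13.5%, against 16.6%). Sibling 6 had the highest sibling value for 14 of the 37 members (37.8%, against 28.0% of all tested genes), among them slc25a39, slc25a12, slc25a28 and slc25a40. These shares are descriptions and were not tested.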

How the data were processed

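Ribosomal RNA was depleted from total RNA and stranded libraries were made, per the labels' protocols. The deposited values are FPKM, 1 column for each library per the file headers. The submitters' processing notes name Trim Galore, STAR 2.4.2a, Picard, Cufflinks 2.2.1 and GRCz10. No source used here says if strand entered the counting, so overlapping antisense genes may share reads. FPKM hold no counts, so a count model was not used and precision rests on the spread of 5 libraries per group. Libraries were grouped by their titles. Starts are 1 base above those of the table, after which 37 of 37 mitochondrial genes matched the reference gene table.

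Rows averaging 1 FPKM or more were fitted with limma 3.58.1 (R 4.3.3, mean-variance trend) on log2(FPKM + 1), which understates changes of low genes, with Benjamini-Hochberg adjustment over all rows and a threshold of 0.05. SDs are of FPKM. Ratios of duplicated genes were tested with scipy 1.17.1 (Python 3.11.15). Tested on simulated data for mutant against sibling with 13003 genes, the limma step recovered 6% of 50 genes set to a 1.5-fold change. It found 56% of those set to 2-fold, 90% of those set to 3-fold and 92% of those set to 4-fold. The simulation changed 200 genes, against 1864 called in the data, so the adjustment was stricter there. Changed genes had a mean log2(FPKM + 1) above 1.5, and folds were set on that scale. These shares therefore do not measure recovery in the data themselves. The members, lists and tests were chosen with earlier results of these data known. 1 member is counted in the totals but not reported here. Of the others, named genes are every member past the threshold, the 8 most abundant members, both copies of each tested pair, and in each list the genes past the threshold and those with the 4 smallest p-values; slc25a16, slc25a21 and others printed beside them serve to account for the rest. The alternatives are listed with their effect in the closing section.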

Additional observations from a re-analysis of the deposited data

Results flagged for a closer look

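In 12 of 90 groups of 5 libraries, over 45 genes, 1 library lay far from the other 4 by Dixon's criterion (a gap above 0.71 of the group's range), and chance gives about 1 in 20. Mutant 1 was high for slc25a22 (192 FPKM), slc25a36a (19.8 FPKM) and the SLC25A5 row of chromosome 5 (11.01 FPKM). Mutant 4 was high for slc25a3b (162 FPKM). Sibling 2 was high for slc25a25a (23.1 FPKM) and low for slc25a1b (5.36 FPKM). Sibling 6 accounted for 6 of the 12, being high for slc25a26 (10.3 FPKM), slc25a28 (8.29 FPKM), slc25a40 (7.53 FPKM), slc25a51b (9.05 FPKM) and SLC25A34 (3.32 FPKM) and low for slc25a32a (2.395 FPKM).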

How the results depend on the processing

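No named gene reversed its direction among called values in the alternatives run. SLC25 members that rose numbered 1, against 2, with a pseudocount of 0.1 FPKM, no filter, rescaling to an equal sum after globin, mitochondrial and rRNA genes were set aside, sibling 2 as a mutant, the replicate block, or mutant 1 and sibling 2 both left out. They numbered 0 under a filter of 5 FPKM, where neither riser was tested, and 3 with median of ratios scaling or quantile normalization. Members that fell numbered 2, against 1, with no filter (slc25a21 being the added one) or array weights, and 4 without both mutant 1 and sibling 2. Leaving out 1 library gave 1 to 2 members that rose and 1 to 3 that fell. Import genes that rose numbered 3 with no filter, 0 with sibling 2 as a mutant, and 2 to 6 without 1 library. They numbered 7 with median of ratios scaling or quantile normalization. Over all genes 300 rose and 461 fell with sibling 2 as a mutant, 755 fell with the filter at 5 FPKM, and 524 to 735 rose and 741 to 1238 fell without 1 library (741 without sibling 4). The difference of the slc25a36 ratio passed with a pseudocount of 0.1 FPKM (0.41), median of ratios scaling (0.36), sibling 2 as a mutant (0.36) and without both libraries (0.37); that of slc25a1 passed in the last 2 (0.88 and 0.85), and that of slc25a25 in the last (0.77). Without 1 library these differences ran from 0.30 to 0.40, 0.65 to 0.91 and 0.24 to 0.70. Causes were not tested. The replicate block gave 1 riser, 1 faller and 4 import genes, timm29 and timm23a being lost (0.0747 and 0.0781). Numbers 1 and 2 occur in 1 group each, so its fold changes rest on the other 8 libraries. They equal those with mutant 1 and sibling 2 both left out. Same-numbered libraries had correlations of deviations of -0.03, 0.09, 0.10 and 0.15, and 4 of 8 correlated best with their own number. The highest correlations were between libraries of unlike number, 0.30 for mutant 1 with sibling 2 and 0.17 for mutant 4 with sibling 3. These values do not settle if the numbers pair the samples. The main fit took no pairs, and the replicate block is given as an alternative. Absolute depth is unknown. The simulated recovery of 6% at 1.5-fold came with fewer changed genes than were called here and does not measure recovery in these data. Genes that missed the threshold may still differ by a small amount.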
